A study of Mus musculus with 7 samples.

Results

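The genes described here are 10 of the Hippo pathway and of the response to its effector YAP, namely Yap1, Wwtr1, Tead1, Lats1, Lats2, Ccn1, Ccn2, Ankrd1, Amotl2 and Ajuba. They were taken by name from the 32285 genes counted in the series, although earlier results of these data were known when they were chosen. All 10 were among the 17155 genes abundant enough to test. The samples were utricles, the vestibular organs of the inner ear that sense linear acceleration, taken from wild-type C57BL/6J mice at postnatal day 2 (P2), cultured as explants and damaged with 2 mM gentamicin, an aminoglycoside toxic to hair cells, for 24 h. The Gent+Fos OE group (4 libraries) also received AAV-PHP.eB, a viral vector in which a CMV promoter, active in many cell types, drives Fos. The explants were exposed to the vector for 48 h. The Gent group (3 libraries) is labelled with gentamicin alone. The tables deposited for Gent carry "sh" in their names, a common short form of short hairpin RNA, whereas the legends of the study speak of a control AAV. What virus this group received, if any, is therefore not settled, and each fold change, that of Fos included, rests on the labels. Every library was RNA of pooled utricles at day 5 post-injury, with 12 per group in the study's methods, taken here as 12 per library. The replicates are therefore pools, and the P2 organ still holds many cell types beside the sensory epithelium.

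The Hippo pathway is a kinase relay that reads cell contact, tension and polarity. MST kinases (Stk3, Stk4) with their scaffold Sav1 activate the LATS kinases with their MOB1 cofactors, and LATS phosphorylates the coactivators YAP and TAZ (the product of Wwtr1), which are then kept out of the nucleus or degraded. When LATS is quiet, YAP and TAZ bind TEAD transcription factors and switch on genes such as Ccn1, Ccn2 and Ankrd1, as well as Lats2, Amotl2 and Ajuba, whose products act back on the pathway. In the utricle, YAP and TEAD are known for controlling the growth of the sensory epithelium and the division of supporting cells, the cells from which new hair cells can come. Fos, joined to a Jun partner, forms the transcription factor AP-1, which is known to share many enhancers with TEAD. The pathway acts largely through phosphorylation and protein location, which RNA counts do not measure.

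The letters that TEAD factors recognise are shown first, because they are the feature most of the 10 genes share in their promoters. RefSeq promoters on GRCm38.p6, each from 250 bases before to 50 bases after a transcription start, were in the table for 8 of the 10 genes, and Tead1 and Ccn2 had no entry. The TEAD 6-mer GGAATG, searched on both strands, stood in a promoter of 7 of these 8 genes (all but Lats1), whereas 16.6% of the 27025 genes with a promoter in the table held it. The genes were chosen as pathway members and known TEAD targets, so this share describes the choice as well. Each window is 30 bases, read 5′ to 3′ on the strand of its gene, with the 6-mer in capitals (CATTCC where it lies on the other strand).
Yap1: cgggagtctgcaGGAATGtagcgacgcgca
Wwtr1: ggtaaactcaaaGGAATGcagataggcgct
Lats2: cgtgacgcccgtGGAATGccaacaatgtag
Ccn1: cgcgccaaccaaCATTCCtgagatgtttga
Ankrd1, farther from the start: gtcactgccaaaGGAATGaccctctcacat
Ankrd1, nearer to the start: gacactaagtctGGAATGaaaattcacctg
Amotl2: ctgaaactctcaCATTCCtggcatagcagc
Ajuba, farther from the start: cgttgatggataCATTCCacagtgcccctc
Ajuba, nearer to the start: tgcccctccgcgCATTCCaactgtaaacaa

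The Yap1 window (chr9:8004720-8004749, minus strand) has its 6-mer 141 bases before the start, and the Ccn1 window (chr3:145650071-145650100, minus strand) has it 103 bases before. In Wwtr1 (chr3:57576029-57576058, minus strand) the same site lies 170 or 136 bases before the start, according to which of its RefSeq promoters is counted from. Ankrd1 held a pair of sites, 210 bases (chr19:36120037-36120066) and 123 bases (chr19:36119950-36119979, both minus strand) before its start, and Ajuba a pair at 186 bases (chr14:54577830-54577859) and 164 bases (chr14:54577808-54577837, both minus strand). The Amotl2 site was 65 bases before the RefSeq start (chr9:102717727-102717756, plus strand). In Lats2 the site was in only 1 of its 2 RefSeq promoters, at base 5 after the start (chr14:57746102-57746131, minus strand). In the gene models of the files, the windows of Yap1, Wwtr1, Ccn1 and Ajuba lie outside the gene, 90 to 272 bases upstream. Those of Lats2, Ankrd1 and Amotl2 overlap an exon of the gene.

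The AP-1 letters TGANTCA, a palindrome that covers both strands, were in 0 of the 8 promoters, and 8.97% of all genes held them. The CArG box, the site of the serum response factor SRF, which drives actin and muscle genes and shares Ccn1, Ccn2 and Ankrd1 with YAP as known targets, was in 0 of the 8 and in 1.81% of all genes. A match is a run of letters and not a measured binding site, and these windows hold no distal enhancers.

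None of the 10 genes passed the test between Gent+Fos OE and Gent. Levels are given in CPM, read counts scaled to the library total with TMM factors. The quasi-likelihood test of edgeR compared the groups, and calls needed an adjusted p (Benjamini-Hochberg) below 0.01 together with a log2 fold change beyond 0.25 in size. Under that rule 23 of all genes tested were called higher (0.134%) and 48 lower (0.28%), and 0 of the 10 genes were called. DESeq2 called 1.75% of its tested genes higher and 2.14% lower, and again 0 of the 10. Limma-voom called 0.122% higher and 0.256% lower, and likewise 0 of the 10. At an unadjusted p under 0.05, 3 of the 10 genes (Wwtr1, Tead1, Lats1) were higher in Gent+Fos OE, where 11.1% of all genes met the same rule, and 2 (Ccn1, Ccn2) were lower, where 13.4% did. The groups did not overlap for Yap1 and Lats1 on the high side (11.3% of all genes) and for Ccn2 on the low side (12.2% of all genes). Yap1, Wwtr1, Tead1, Lats1 and Amotl2 thus lay on the higher side, at log2 fold changes of 0.27 to 0.53, and the secreted targets Ccn1 and Ccn2 on the lower side, at -0.32 and -0.36, none of them past the test.

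**Figure D1:**
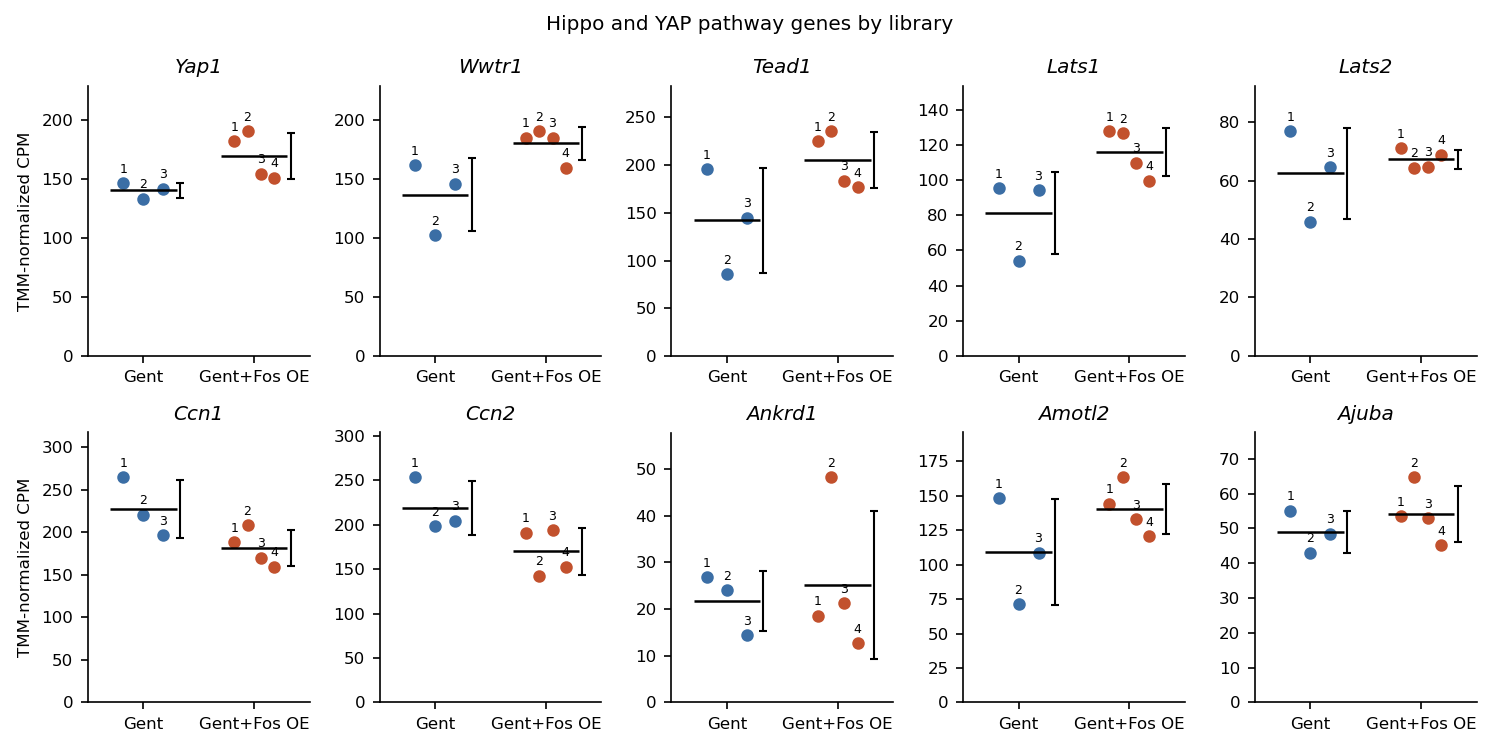
TMM-normalized CPM (vertical axes, from 0) of the 10 genes in each Gent (blue, n = 3) and Gent+Fos OE (orange, n = 4) library; numbers are replicates, horizontal bars group means and vertical bars SDs. Gent replicate 2 is the lowest library for 7 of the 10 genes, and Gent+Fos OE replicate 2 is the highest for 6.

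Fos, the gene the vector carries, was checked first. Fos, whose vector and genomic copies cannot be told apart in these counts, was at 151, 151, 167 and 149 CPM in Gent+Fos OE replicates 1 to 4 and at 39.5, 40.6 and 34.6 CPM in Gent replicates 1 to 3. It was called higher, with a log2 fold change of 2.01 (SE 0.13). Library totals ran from 27879889 to 34335214 counts and replicates differed by more than the sampling of reads gives. Gent replicate 2 stood apart through a trend with gene length. The Spearman correlation, across genes, of its deviation from the mean of all libraries with exonic gene length was -0.5, against -0.22 and 0.15 in the other Gent libraries and 0.12 to 0.33 in Gent+Fos OE. Results for the 10 genes are therefore also given without that library and after removing each library's length trend.

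LATS1 and LATS2 are the kinases at the end of the relay. Lats1 (chr10:7681214-7716460, plus strand) was at 128, 127, 110.0 and 99.6 CPM in Gent+Fos OE replicates 1 to 4, and at 95.4, 54.1 and 94.2 CPM in Gent replicates 1 to 3. Each Gent+Fos OE library was above each Gent library, although replicate 4 was only just above Gent replicates 1 and 3. The log2 fold change was 0.51 (SE 0.20, 95% interval 0.08 to 0.95), with an edgeR adjusted p of 0.16, the lowest of the 10 genes, and a two-sided exact permutation p of 0.0286, the smallest that the 35 arrangements of 4 and 3 libraries can give. Without Gent replicate 2 the log2 fold change was 0.29.

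Lats2 (chr14:57689662-57758388, minus strand), which is also a known YAP target, was at 71.1, 64.45, 64.7 and 68.8 CPM in Gent+Fos OE and at 77.0, 46.0 and 64.7 CPM in Gent. The Gent libraries lay on both sides of the Gent+Fos OE range, whose SD was 4.81% of the mean against 24.9% in Gent. Its log2 fold change of 0.11 (SE 0.17, 95% interval -0.26 to 0.47, edgeR adjusted p = 0.712) was 0.28 without Gent replicate 1 and turned to -0.08 without Gent replicate 2 and to -0.02 with the length correction. Per kilobase, Lats2 was at 0.533 to 0.723 of the Lats1 level among the Gent+Fos OE libraries and at 0.718 to 0.889 among the Gent libraries, and these ranges overlap.

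The core kinases and adaptors, a list that includes Lats1 and Lats2, lay mostly on the higher side. Of 19 tested, 18 had a higher mean in Gent+Fos OE, with a median log2 fold change of 0.24 against -0.001 over all genes tested, but 0 were called by edgeR, DESeq2 or limma-voom. At an unadjusted p under 0.05, 5 were higher (11.1% of all genes) and 1 was lower (13.4% of all genes). Apart from Lats1, the smallest p-values among them belonged to Mob1b, a LATS cofactor, with a log2 fold change of 0.65 (SE 0.22, edgeR adjusted p = 0.128), to Map4k3, a kinase that can activate LATS, with 0.55 (SE 0.19), and to Map4k1, a blood cell kinase of the same family, with -0.70 (SE 0.29). Mob1b was at 0.39 without Gent replicate 2 and 0.30 with the length correction, and Map4k3 at 0.34 and 0.31. Without Gent replicate 2 the list's median was 0.09, with 12 genes higher and 7 lower, and with the length correction it was 0.07, again with 12 and 7.

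YAP and TAZ are the coactivators that LATS restrains. Yap1 (chr9:7931999-8004596, minus strand) was at 182, 191, 155 and 151 CPM in Gent+Fos OE and at 146, 133 and 142 CPM in Gent. The groups did not overlap, but the gap between Gent+Fos OE replicate 4 and Gent replicate 1 was small beside the spread within Gent+Fos OE. The log2 fold change was 0.27 (SE 0.13, 95% interval -0.01 to 0.56), with an edgeR adjusted p of 0.219 and a two-sided exact permutation p of 0.0857. It was 0.23 without Gent replicate 2 and 0.02 once the length trends were removed. Yap1 has 9257 exonic bases, against a median of 4084 for the genes tested. In bulk tissue, fewer cells of a type and less RNA per cell cannot be told apart.

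Wwtr1 (chr3:57455649-57575910, minus strand), which encodes TAZ, was at 185, 190.5, 185 and 159.55 CPM in Gent+Fos OE and at 161, 102 and 146 CPM in Gent. Gent+Fos OE replicate 4 lay just below Gent replicate 1, and Gent replicate 2 was far under the other 6 libraries. Its log2 fold change was 0.40 (SE 0.16, 95% interval 0.04 to 0.76), with an edgeR adjusted p of 0.175 and a two-sided exact permutation p of 0.0571. Without Gent replicate 2 it was 0.22, and with the length correction it was 0.36. Per kilobase there was more Wwtr1 than Yap1 RNA in each library, 1.93 to 2.31 times as much in Gent+Fos OE and 1.49 to 2.14 times as much in Gent.

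TEAD1 is one of 4 TEAD factors that carry YAP and TAZ to DNA. Tead1 (chr7:112679318-112906807, plus strand) was at 225, 236, 184 and 177 CPM in Gent+Fos OE and at 196, 85.5 and 145 CPM in Gent. Gent replicate 1 lay inside the Gent+Fos OE range and Gent replicate 2 far below it, and the SD within Gent, 38.9% of the mean, was the largest of the 10 genes. Its log2 fold change with all 7 libraries was 0.53 (SE 0.24, 95% interval 0.001 to 1.06), with an edgeR adjusted p of 0.204 and a two-sided exact permutation p of 0.1143. The value was 0.26 without Gent replicate 2 and 0.83 (edgeR adjusted p = 0.0445) without Gent replicate 1. Tead1 is also the longest of the 10 genes, at 13570 exonic bases, and the length correction left 0.21.

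Among the TEAD paralogues, taken by family and not by their values, Tead1 was at 15.1 ± 2.18 RPKM (CPM per kilobase of exon, SD, n = 4) in Gent+Fos OE and 10.5 ± 4.07 (n = 3) in Gent, and Tead2 at 13.7 ± 1.61 and 14.6 ± 2.73. Tead3 was lower, at 7.31 ± 0.72 and 7.15 ± 1.10 RPKM, and Tead4 lowest, at 2.12 ± 0.31 and 1.45 ± 0.22. Of the 8 tested genes for YAP, TAZ, TEAD factors and their cofactors, 7 had a higher mean in Gent+Fos OE (median log2 fold change 0.28), 3 of them at an unadjusted p under 0.05 (11.1% of all genes), and 0 were called by edgeR, DESeq2 or limma-voom. Outside the 10 genes the smallest p-values were those of Tead4, with a log2 fold change of 0.55 (SE 0.19, edgeR adjusted p = 0.137), of Vgll4, a cofactor that competes with YAP for TEAD, with 0.29 (SE 0.14), and of Tead2, with -0.09 (SE 0.15). With the length correction the list's median was 0.11, with 5 genes higher and 3 lower, and Vgll4 was at 0.17 without Gent replicate 2. The cofactor gene Vgll1 had no count in any library and Vgll2 was too low to test.

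**Figure D2:**
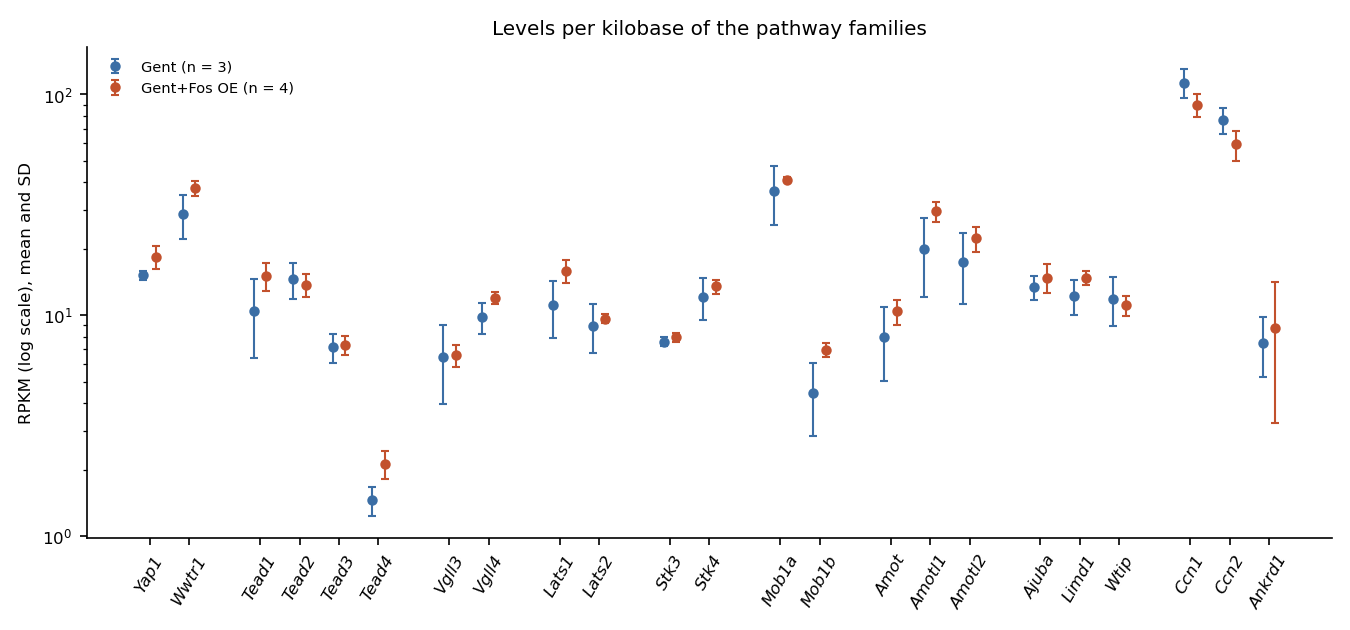
Mean RPKM (log axis) with SD for the 10 genes and their paralogues in Gent (blue, n = 3) and Gent+Fos OE (orange, n = 4). Ccn1 and Ccn2 stand above the other genes in both groups, and Tead4 is the lowest TEAD gene.

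AMOTL2 and AJUBA act between junctions and the kinases. Amotl2 (chr9:102716672-102733418, plus strand), an angiomotin that tethers YAP at junctions and is itself a known YAP target, was at 144, 163, 133 and 121 CPM in Gent+Fos OE and at 148, 71.2 and 109 CPM in Gent. Gent replicate 1 was higher than 3 of the 4 Gent+Fos OE libraries, so the higher Gent+Fos OE mean came with a wide spread in Gent. The log2 fold change was 0.36 (SE 0.22, 95% interval -0.12 to 0.84, edgeR adjusted p = 0.319) and was 0.12 without Gent replicate 2 and 0.64 (edgeR adjusted p = 0.0564) without Gent replicate 1.

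Ajuba (chr14:54567472-54577558, minus strand), a LIM domain protein that holds LATS at junctions under tension, was at 53.6, 64.6, 53.0 and 45.2 CPM in Gent+Fos OE and at 55.1, 43.1 and 48.5 CPM in Gent. The groups overlapped, although Gent+Fos OE replicate 2 was above each Gent library. Its log2 fold change was 0.15 (SE 0.15, 95% interval -0.18 to 0.48, edgeR adjusted p = 0.558), and was 0.05 without Gent+Fos OE replicate 2 and 0.06 without Gent replicate 2.

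The regulators upstream of the kinases, at the membrane and junctions, lay mostly on the higher side. Of 24 upstream regulators tested, 23 had a higher mean in Gent+Fos OE (median log2 fold change 0.34), 8 of them at an unadjusted p under 0.05, which 11.1% of all genes met on that side. None was called by edgeR or limma-voom, and DESeq2 called 1 (1.75% of its tested genes were called higher), Ptpn14, a phosphatase that holds YAP in the cytoplasm and is a known YAP target too. Ptpn14 was at 157, 167, 139 and 133 CPM in Gent+Fos OE and at 114, 59.8 and 84.2 CPM in Gent, with a log2 fold change of 0.80 (SE 0.20, edgeR adjusted p = 0.0722, DESeq2 adjusted p = 0.0048). Patj, a polarity scaffold, had a log2 fold change of 0.54 (SE 0.16), which was 0.16 with the length correction and 0.39 without Gent+Fos OE replicate 2, its highest library. Ptpn14 was at 0.46 with the length correction. The list's median was 0.18 without Gent replicate 2, with 22 genes higher and 2 lower, and 0.19 with the length correction, with 17 and 7.

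The inhibitors of the relay did not lean one way. In the STRIPAK phosphatase complex, which switches MST kinases off, 8 of 16 genes had a higher mean and 8 a lower one (median log2 fold change 0.03), with 0 called by edgeR, DESeq2 or limma-voom and 3 higher at an unadjusted p under 0.05 (11.1% of all genes). Those with the smallest p-values were Sike1 (0.32, SE 0.13), Stk24 (0.29, SE 0.13) and Strn (0.44, SE 0.19), all log2 fold changes. With the length correction these were 0.04, 0.22 and 0.24, and Strn was at 0.21 without Gent replicate 2. Of the 6 LIM proteins that inhibit LATS, 3 were higher and 3 lower, with 0 called by these tools and 2 lower at an unadjusted p under 0.05 (13.4% of all genes). These 2 were Zyx, which marks tensed actin fibres and is also an SRF target, with a log2 fold change of -0.63 (SE 0.20, edgeR adjusted p = 0.119), and Trip6, with -0.36 (SE 0.15). Without Gent replicate 2 they were at -0.31 and -0.16. Limd1, of the same subfamily as Ajuba, was at 0.28 (SE 0.15), and at 0.13 without that library.

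CCN1 and CCN2 are secreted matrix proteins and the most used readouts of YAP activity. Ccn1 (chr3:145646976-145649981, minus strand), formerly Cyr61, was at 188, 209, 169.8 and 159.7 CPM in Gent+Fos OE and at 264, 220.4 and 197 CPM in Gent. Only Gent+Fos OE replicate 2 reached above the lowest Gent library. The log2 fold change was -0.32 (SE 0.15, 95% interval -0.64 to -0.002), with an edgeR adjusted p of 0.203 and a two-sided exact permutation p of 0.1143. It was -0.35 without Gent replicate 2, -0.20 without Gent replicate 1, -0.19 with the length correction and -0.10 with that correction and the replicate block. Ccn1 is the shortest of the 10 genes, at 2019 exonic bases.

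Ccn2 (chr10:24595442-24598683, plus strand), formerly Ctgf, was at 191, 142, 194 and 153 CPM in Gent+Fos OE and at 253, 198 and 204 CPM in Gent. Each Gent library was above each Gent+Fos OE library, by a narrow margin between Gent replicate 2 and Gent+Fos OE replicate 3. The log2 fold change was -0.36 (SE 0.15, 95% interval -0.70 to -0.02), with an edgeR adjusted p of 0.186 and a two-sided exact permutation p of 0.0857. It was -0.43 without Gent replicate 2 and -0.29 with the length correction. Of its exonic bases, 23.24% overlap Gm15270 on the opposite strand (0.178 to 0.538 CPM), and reads hitting both genes were counted for neither.

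Ankrd1 (chr19:36111961-36120099, minus strand), a nuclear ankyrin repeat protein of stretched muscle and a YAP target, had the lowest mean CPM of the 10 genes in both groups. It was at 18.6, 48.2, 21.2 and 12.6 CPM in Gent+Fos OE and at 26.8, 23.97 and 14.4 CPM in Gent. Gent+Fos OE replicate 2 was above all other libraries, and the remaining 3 lay within or just under the Gent range. Its log2 fold change of 0.22 (SE 0.39, 95% interval -0.65 to 1.08, edgeR adjusted p = 0.753) was -0.31 without Gent+Fos OE replicate 2 and -0.01 without Gent replicate 3.

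Ccn1 and Ccn2 had a negative log2 fold change with all 7 libraries and in each of the 16 alternative fits, whereas Lats2 and Ankrd1 turned from positive to negative in some of them. Summed marker levels of several other cell types also lay apart between the groups, with no test of the sums. Of 8 smooth muscle and pericyte markers, 4 were higher and 4 lower, but their summed level was between 155.6 and 296.3 CPM among Gent+Fos OE libraries and between 349.5 and 625.8 CPM among Gent libraries, most of it from Acta2. The 10 mesenchyme markers summed to 6982 to 10470 CPM and 8710 to 12560 CPM, with 3 higher and 7 lower. The 10 macrophage markers summed to 3067 to 4756 CPM and 5029 to 7002 CPM, with 1 higher and 9 lower. The smooth muscle and macrophage sums thus lay lower in Gent+Fos OE with no overlap, and the mesenchyme sums overlapped. The 10 supporting cell markers summed to 2673 to 3887 CPM and 2048 to 2499 CPM, with 8 higher and 2 lower. The 7 melanocyte markers, all lower, summed to 46.79 to 52.4 CPM and 90.46 to 129 CPM. Neither of these sums overlapped between the groups. Gene by gene, edgeR called the melanocyte markers Dct and Tyrp1 lower (0.28% of all genes tested) and the supporting cell marker Otog higher (0.134%). DESeq2 called 6 melanocyte, 4 macrophage (C1qa, C1qb, C1qc, Csf1r) and 2 smooth muscle markers (Acta2, Cnn1) lower (2.14% of its tested genes). DESeq2 also called the supporting cell markers Otog and Otogl higher and Tectb lower, and the endothelial Flt1 and the hair cell Slc17a8 higher. Of all its tested genes, DESeq2 called 1.75% higher. The sums of the hair cell (692.9 to 878.7 and 598.8 to 738.4 CPM), endothelial (131 to 177.6 and 141 to 204.8 CPM) and Schwann cell markers (359.5 to 519.1 and 320.6 to 482 CPM) overlapped between the groups. The defining markers of the utricle, those of hair cells and supporting cells, were thus present, and no marker of any of these lists was at 0 in all libraries. The part of these cell types in the values of the 10 genes was not tested.

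**Figure D3:**
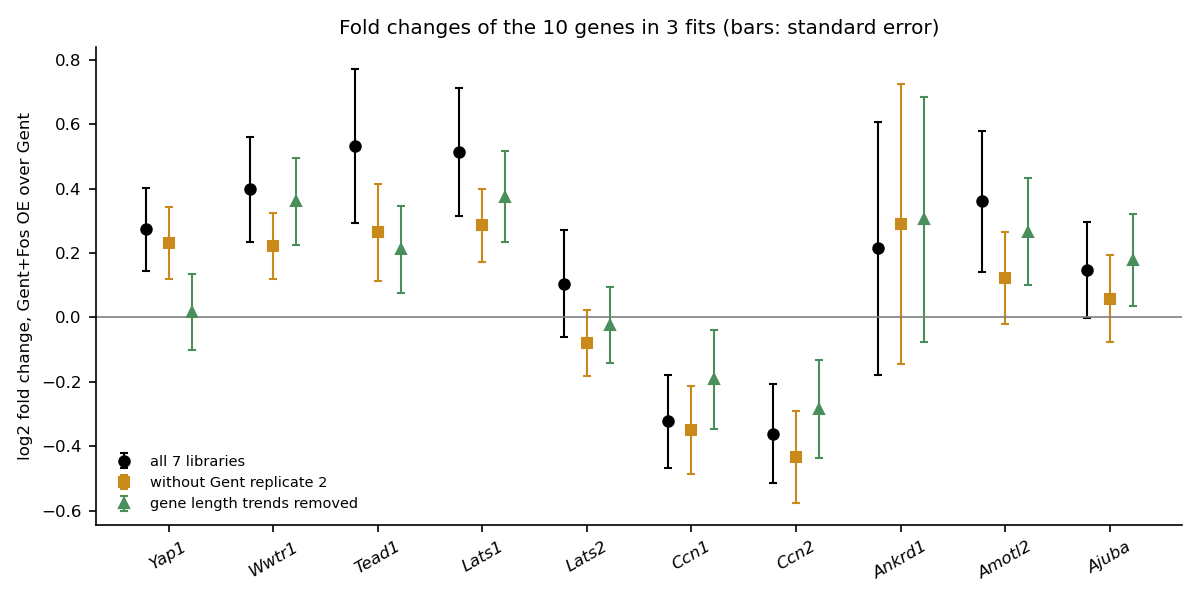
Log2 fold change, Gent+Fos OE over Gent (vertical axis), with its standard error for the 10 genes from all 7 libraries (black), without Gent replicate 2 (gold) and with gene length trends removed (green). Tead1 goes from 0.53 to 0.26 and 0.21, Yap1 from 0.27 to 0.23 and 0.02, and Lats2 from 0.11 to -0.08 and -0.02, while Ccn1 and Ccn2 stay below 0 in the 3 fits.

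The wider lists of target genes were described beside these 3 targets. Of 30 known YAP and TAZ targets tested, 23 had a higher mean in Gent+Fos OE and 7 a lower one, with a median log2 fold change of 0.30. At an unadjusted p under 0.05, 9 were higher (11.1% of all genes) and 5 lower (13.4% of all genes, a share near that of the list), 0 were called by edgeR or limma-voom, and DESeq2 called 1, Ptpn14 (1.75% of its tested genes were called higher). Outside the 10 genes, those with the smallest p-values were Ptpn14, the forkhead factor Foxf2 and the growth factor Tgfb1. Foxf2, which is among the 5 lower targets, had 10 or more counts in each Gent library but in only 1 Gent+Fos OE library. Its Gent+Fos OE mean was 0.275 ± 0.0718 CPM (SD, n = 4) and its Gent mean was 0.95 ± 0.228 (SD, n = 3). It got no adjusted p from DESeq2, and the fit that kept genes with 10 or more counts in each library left it out. Its place among the genes tested rests on Gent, the group where it is higher, so its edgeR p cannot decide a difference. The log2 fold change of Foxf2, -1.77 (SE 0.44), is therefore given as a description only. Tgfb1 had a log2 fold change of -0.69 (SE 0.19, edgeR adjusted p = 0.0897). Tgfb1 was at -0.43 without Gent replicate 2. The list's median was 0.15 without that library, with 20 genes higher and 10 lower, and 0.18 with the length correction, with 21 and 9.

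The 21 SRF and MRTF targets, which include Ccn1, Ccn2 and Ankrd1, lay on the other side. Of these, 4 had a higher mean in Gent+Fos OE and 17 a lower one, with a median log2 fold change of -0.36, which was -0.35 without Gent replicate 2 and -0.34 with the length correction. At an unadjusted p under 0.05, 13 were lower (13.4% of all genes) and 1 higher (11.1% of all genes), and 11 had groups that did not overlap, all lower (12.2% of all genes). None was called by edgeR with all 7 libraries and the usual filter or by limma-voom, whereas DESeq2 called 5 lower (2.14% of its tested genes), namely Acta2, Actg2, Cnn1, Cnn2 and Myl9. Acta2, Cnn1 and Tagln are also on the smooth muscle and pericyte list, whose summed level lay lower in Gent+Fos OE as given above, and the part of those cells in the values of this list was not tested. In edgeR with no filter, Actg2 (adjusted p = 0.000605), Cnn1 (0.000858) and Acta2 (0.0018) were called, Actg2 was called with the length correction (0.00907), and Cnn1 with the replicate block and that correction (0.00865). Actg2, enteric smooth muscle actin, had a log2 fold change of -1.69 (SE 0.27, edgeR adjusted p = 0.0131), Cnn1, smooth muscle calponin, one of -2.13 (SE 0.36, adjusted p = 0.017), and Acta2, the smooth muscle actin of vessels and myofibroblasts, one of -1.35 (SE 0.25, adjusted p = 0.025).

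The lists share 3 genes. Of the 27 targets on the YAP and TAZ list alone, 22 had a higher mean (median log2 fold change 0.32), and of the 18 on the SRF and MRTF list alone, 3 did (median -0.37). The 3 shared genes were at -0.32 (Ccn1), -0.36 (Ccn2) and 0.22 (Ankrd1), all inside the range of either list. Without Gent replicate 2 and with the length correction, 15 of the 18 SRF-only genes were lower in either fit. Of the 27 YAP-only genes, 19 were higher without that library, and 20 with the length correction, where their median was 0.19. No test compared the lists.

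**Figure D4:**
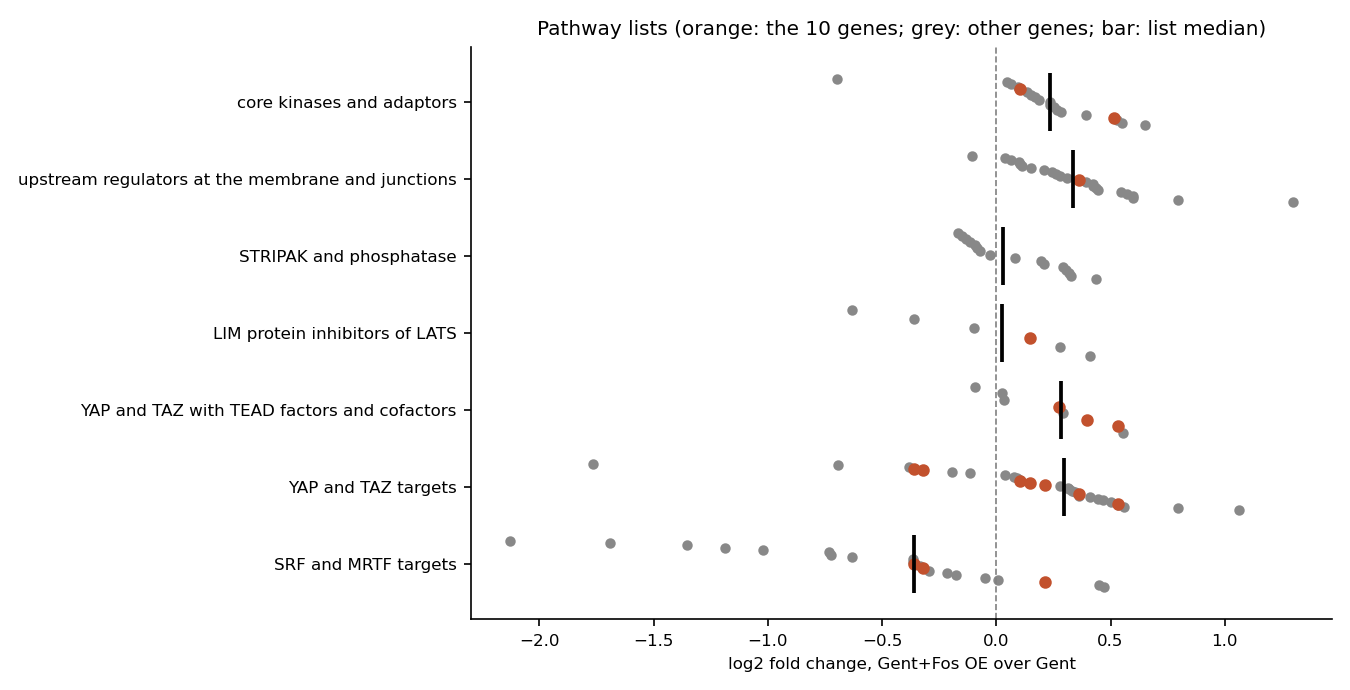
Log2 fold change, Gent+Fos OE over Gent (horizontal axis), of the tested genes in 7 pathway lists; orange points are the 10 genes, grey points the other listed genes and black bars list medians. The upstream and YAP target lists have medians of 0.34 and 0.30 and the SRF list one of -0.36.

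The levels of the 10 genes, per kilobase, gave the following order. In Gent+Fos OE, Ccn1 was highest at 89.9 ± 10.7 RPKM (SD, n = 4), then Ccn2 at 59.4 ± 9.20 and Wwtr1 at 37.6 ± 2.90, each apart from the next. Amotl2 (22.3 RPKM), Yap1 (18.4), Lats1 (15.9), Tead1 (15.1) and Ajuba (14.8) followed, with neighbours that overlapped, and Lats2 (9.65) and Ankrd1 (8.71) were lowest. In Gent, Ccn1 was at 113 ± 17.0 RPKM (SD, n = 3) and Ccn2 at 76.4 ± 10.5, each apart from the next, and from Wwtr1 (28.6 RPKM) through Amotl2 (17.4), Yap1 (15.2), Ajuba (13.4), Lats1 (11.1), Tead1 (10.5) and Lats2 (8.97) to Ankrd1 (7.52) all neighbours overlapped. Since reads over 23.24% of the exonic bases of Ccn2 could be lost to the overlap with Gm15270 while its full length was used, its RPKM may be understated, and its order against Ccn1 is not settled. The ratio of Ccn1 to Ccn2 per kilobase, with the same limit, ranged from 1.24 to 2.08 (Gent+Fos OE) and from 1.36 to 1.58 (Gent).

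The 10 genes varied together in part. The library lowest for 7 of them, namely Yap1, Wwtr1, Tead1, Lats1, Lats2, Amotl2 and Ajuba, was Gent replicate 2, and the library highest for 6, namely Yap1, Wwtr1, Tead1, Ankrd1, Amotl2 and Ajuba, was Gent+Fos OE replicate 2. Ccn2, in contrast, was lowest in Gent+Fos OE replicate 2, and Lats2, Ccn1 and Ccn2 were highest in Gent replicate 1. The spread within Gent, as SD over mean, was larger than within Gent+Fos OE for 6 of the 10 genes. Within Gent the highest library exceeded the lowest by 2.29 times for Tead1 and 2.08 times for Amotl2, against 1.10 times for Yap1. In Gent+Fos OE the largest such ratio was that of Ankrd1, at 3.82.

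The fold changes moved with gene length. Over all genes tested, the Spearman correlation across genes of the log2 fold change with exonic length was 0.38, and it was 0.19 without Gent replicate 2 and 0.07 with the length correction, where genes are not independent replicates. The median log2 fold change was -0.28 in the shortest 10% of genes and 0.33 in the longest 10%. Of the 10 genes, 6 are longer than the median gene tested. Against genes of their own length class, Lats1, Wwtr1, Ankrd1 and Amotl2 lay above the middle 50%, Ccn2 lay just below it, and Yap1, Tead1, Lats2, Ccn1 and Ajuba lay within it. Tead1, for instance, had 0.53 where the longest 10% of genes had an upper quartile of 0.533, and Lats2 had 0.105 where its class had a median of 0.115.

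**Figure D5:**
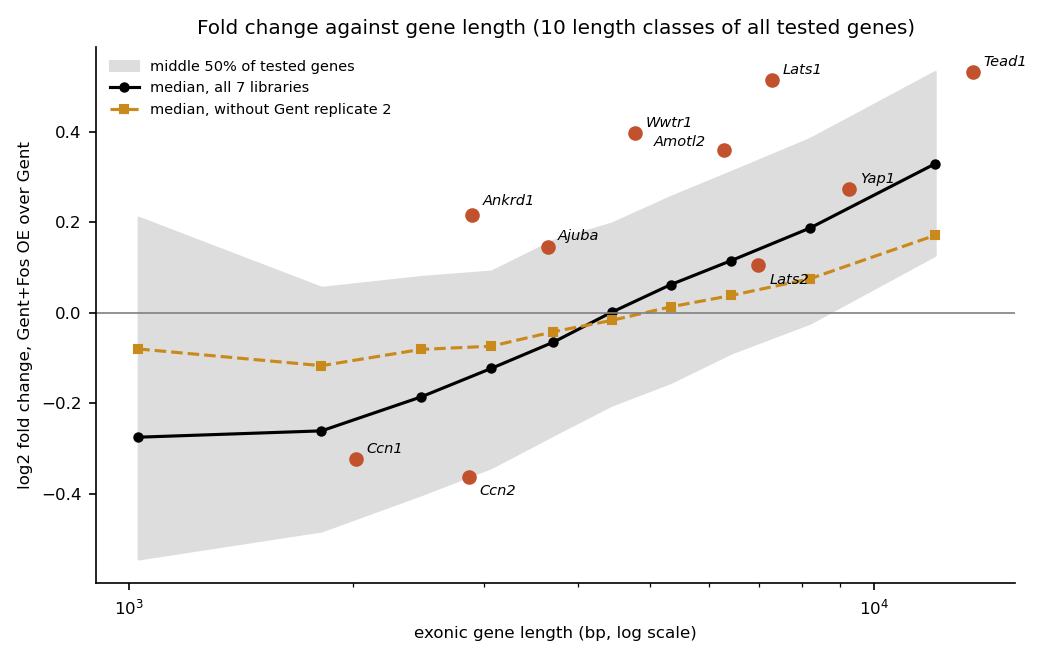
Log2 fold change, Gent+Fos OE over Gent (vertical axis), against exonic gene length in bp (log axis): orange points are the 10 genes, the black line the median of all tested genes in 10 length classes, the band their middle 50% and the gold dashed line the median without Gent replicate 2. The black line runs from -0.28 to 0.33 and the gold line from -0.08 to 0.17.

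The genes whose pattern over the 7 libraries was most like that of each target were found by the root mean square difference of centred log2 CPM, with genes under a mean of 1 CPM left out. For Ccn1 these were Ddah1 (0.072) and Ctu1 (0.081), for Ccn2 Prkch (0.08) and Chn1 (0.096), and for Ankrd1 Slc4a11 (0.153) and Klhdc8a (0.169). Slc4a11 and Klhdc8a, like Ankrd1, were highest in Gent+Fos OE replicate 2, at 19.3 and 17.5 CPM against 5.06 to 10.5 and 6.49 to 11.3 CPM in the other 6 libraries.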

How the data were processed

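Gene-level read counts were deposited by the authors for 7 RNA-seq libraries (4 Gent+Fos OE, 3 Gent). They were prepared with the NEBNext Ultra RNA kit from RNA of pooled utricles and sequenced as read pairs. The study's methods give 12 utricles per group, taken here as 12 per library. Per the file headers, featureCounts 2.0.6 counted reads over exons of an annotation on mm10, with no strand option and with the reads of a pair counted separately, so reads from a gene and its antisense partner cannot be told apart. The submitters' processing notes name Trim Galore 0.6.10 and HISAT2 2.2.1, whereas the study's methods name mm39 and 3 replicates per condition. All 7 labelled libraries were used, with coordinates as in the files. Nothing in the labels ties pools to litters, so p-values measure the spread between these pools.

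Symbols came from GENCODE vM39 by Ensembl ID (31674 of 32285 genes). Genes kept by filterByExpr (17155) were normalized by TMM and compared in R 4.3.3 by edgeR 4.0.16 (quasi-likelihood F-test, no covariate), with Benjamini-Hochberg adjustment over all genes tested and limits of 0.01 on the adjusted p and 0.25 on the absolute log2 fold change, which are also the limits in the methods of the study. Confidence intervals are at 95%. Exact permutation tests were two-sided, on mean log2 CPM over 35 arrangements. RPKM is TMM-normalized CPM per 1000 exonic bases. The 16 alternatives were DESeq2 1.42.0, limma-voom (limma 3.58.1), normalization by RLE or by upper quartile, keeping all genes with a count, keeping genes with 10 or more counts in each library, removing length trends by loess (span 0.3), the replicate number as a block, that block together with the length correction, and 7 fits that each left out 1 library. Both block fits used only replicate numbers found in both groups, so Gent+Fos OE replicate 4 was left out of them. The fits were tested on simulated data. Figures were drawn with matplotlib 3.10.9.

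The 10 genes and the gene lists were chosen with earlier results of these data known, so lists are described by counts and medians with no test. Besides the 10 genes and Fos, the text names the 3 genes of each pathway list with the smallest edgeR p (and any called), the 2 genes most like each of Ccn1, Ccn2 and Ankrd1, and paralogues by family, and 1 gene that this rule names is not reported here. Genes called in a list by any tool (Cnn2, Myl9 and the markers of other cell types) were named after their values were seen.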

Additional observations from a re-analysis of the deposited data

Results flagged for a closer look

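In 2 of 37 genes checked, 1 of the 4 Gent+Fos OE libraries stood apart from the other 3 by Dixon's test at 95%, which chance alone gives in about 1 of 20 groups. Patj was at 100.43 CPM in Gent+Fos OE replicate 2 and at 66.41 to 71.87 CPM in the others. Fos was at 166.98 CPM in Gent+Fos OE replicate 3 and at 148.83 to 151.14 CPM in the others. None of the 10 Hippo and YAP pathway genes was flagged, Ankrd1 included, whose highest library was 48.2 CPM.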

How the results depend on the processing

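In all 16 alternative fits 0 of the 10 genes were called. The smallest adjusted p of any of them was 0.0445, for Tead1 in edgeR without Gent replicate 1. Of 160 comparisons of a gene's log2 fold change with an alternative, 5 reversed and 155 did not. Lats2 (0.11) was -0.024 with the gene length correction, -0.036 with the replicate block and that correction, and -0.08 to 0.281 when single libraries were left out. Ankrd1 (0.22) ranged from -0.313 (without Gent+Fos OE replicate 2) to 0.432 when single libraries were left out (-0.011 without Gent replicate 3), and was 0.456 with the replicate block and the length correction. Of other genes, Tead2 ranged from -0.184 to 0.066 (without Gent replicate 2), Slc4a11 from -0.396 to 0.447 and Klhdc8a from -0.248 to 0.315 when single libraries were left out, the lowest values of the last pair being without Gent+Fos OE replicate 2. The median of the YAP, TAZ, TEAD and cofactor list moved from 0.28 to 0.114 with the length correction. Over all genes, 71 were called by edgeR, 204 with no filter, 611 by DESeq2, 130 with the length correction, and 5 to 138 when single libraries were left out (21, 24, 5 and 19 without Gent+Fos OE replicates 1 to 4, 138 without Gent replicate 2 and 15 without Gent replicate 3). The groups share replicate numbers, but the deviations of same-numbered libraries correlated at 0.064, -0.038 and 0.032, so the numbers were not taken as pairs. Both block fits also left out Gent+Fos OE replicate 4, whose number Gent lacks. With the replicate block edgeR called 0 genes, with 3389 at an unadjusted p under 0.05, and 47 with the block and the length correction. Fos kept a log2 fold change of 2.03 with the replicate block, but at an edgeR adjusted p of 0.0317 it was not called there. The block changed no call among the 10 genes. The cause of these changes was not tested. Each of the 10 genes had a mean above 20 CPM in both groups, and replicates differed by more than read sampling gives, so the spread between 4 and 3 pools limits these values more than depth.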
